A study of Danio rerio with 18 samples.

Results

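The genes described are 10 zebrafish genes for actins, troponins and tropomyosins of the thin filament, taken from the 31953 genes quantified in the series. They comprise 4 actins (ACTA1, ENSDARG00000036371; ACTC1, ENSDARG00000057911; actc1a, ENSDARG00000042535; actc1c, ENSDARG00000076126), 4 troponins (TNNC1, ENSDARG00000037539; 2 genes with the symbol TNNI2, ENSDARG00000029069 and ENSDARG00000035958; tnnt2d, ENSDARG00000002988) and 2 tropomyosins (tpm4a, ENSDARG00000023963; tpm3, ENSDARG00000005162). Of these, 9 were taken by identifier and tpm3 by its symbol. Symbols in capitals are human names that the gene name table gives to zebrafish genes. These TNNI2 genes are called TNNI2-29069 and TNNI2-35958 after the last digits of their identifiers. Further genes with the symbol TNNI2 are not among the 10. All 10 passed the filter on low counts that left 16011 genes for testing. The genes were chosen by their measured HRasG12V effects in keratinocyte and neutrophil libraries, so values from those libraries are given as a description: fold changes, errors and counts of genes past a threshold, with no p-value for a gene and no support drawn from the counts. This holds for the effects in both cell types and for all comparisons between cell types, which reuse the same libraries. The macrophage effect, which the choice did not name, was tested. Macrophage libraries were scaled together with the others over the 6 groups, so that test may not be independent of the choice.

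In striated muscle the thin filament is a helix of alpha-actin with tropomyosin wound along it. Tropomyosin covers the myosin-binding sites of actin at rest, and a troponin complex of a calcium-binding subunit (troponin C), an inhibitory subunit (troponin I) and a tropomyosin-binding subunit (troponin T) shifts it when calcium rises, which lets myosin pull. Trunk muscle makes up much of a zebrafish larva, and vertebrates carry separate genes for skeletal, cardiac and slow or fast forms of these proteins. Some tropomyosin genes, tpm3 and the tpm4 type among them, also code for forms that bind the cytoskeletal actin of non-muscle cells.

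Translating ribosome affinity purification (TRAP) recovers messenger RNA on ribosomes that carry an EGFP-tagged L10a subunit, so that the reads are meant to come from the cells that express the tag. Each of 18 libraries was made from 50 pooled larvae at 3 days post-fertilization, with 3 libraries for each of 3 cell types and 2 constructs, HRasG12V and HRas control. The replicate number was taken as the batch. All larvae were injected at the 1-cell stage with RFP-HRasG12V or RFP-HRas under the krt4 promoter, which is active in skin keratinocytes, so the control larvae also carried an HRas transgene. For keratinocyte libraries a krt4-driven L10a plasmid was injected into wild-type embryos together with the construct, which limits tag and construct to the cells that took up the plasmids, whereas neutrophil libraries came from Tg(LyzC:EGFP-L10a) larvae and macrophage libraries from Tg(mpeg1:EGFP-L10a) larvae. By design the neutrophils and macrophages of HRasG12V larvae were therefore not meant to express the oncogene but lived in larvae whose keratinocytes did. The paper states that the pools were collected at this age on 3 separate days, so the replicates of a group came from embryos of different days. Labels and methods do not say whether equal replicate numbers across groups mean the same day, or whether pools of the same day shared clutches. P-values set a difference between groups against the spread between libraries, which the model shares in part across genes. The libraries are pools of larvae, not single animals.

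The expected counts of 17 libraries summed to between 6206924 and 14781123, and the 10 most abundant features held between 72.4% and 94.7% of them, which left between 385201 and 2623922 counts for all other genes. Macrophage HRas control replicate 3 held 16990 counts, of which 1 fell on TNNI2-29069 and 1 on tpm3, and was left out, so the macrophage HRas control group had 2 libraries. The labelled cell types were checked by marker genes: keratinocyte markers summed to 4400-4628 CPM in keratinocyte HRasG12V and 3878-6708 CPM in keratinocyte HRas control libraries, against 1032-2856 CPM in neutrophil and macrophage libraries. Macrophage markers summed to 88.8-159.7 CPM in macrophage HRasG12V and 68.2-126.7 CPM in macrophage HRas control libraries, against 9.10-21.2 CPM in keratinocyte and neutrophil libraries. Lysozyme (lyz), a neutrophil granule enzyme, averaged 36.2 CPM in neutrophil HRasG12V and 10.4 CPM in neutrophil HRas control libraries and at most 1.5 CPM in any other group. In neutrophil HRas control replicate 3 lyz was at 2.08 CPM and the neutrophil markers summed to 4.16 CPM. All macrophage and keratinocyte HRasG12V libraries had a higher sum (8.21-20.6 CPM). The markers npsn and srgn also averaged most in neutrophil libraries under each construct. NCF1 averaged more in macrophage than in neutrophil libraries (9.79 and 4.95 CPM with HRasG12V). MMP9 and mmp13a averaged more in keratinocyte than in neutrophil libraries. Skeletal muscle genes outside the thin filament were read in every library, with summed levels between 375.8 and 2723 CPM. In these purified pools, fewer muscle cells and less RNA per muscle cell cannot be told apart, and neither can muscle RNA carried through the purification and RNA on tagged ribosomes.

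Levels between genes were compared in TPM, the unit that corrects for transcript length. Over 17 libraries tpm3 had the highest median, 23.4 TPM (range 8.85-82.1), followed by TNNI2-29069 with 13.5 TPM (2.91-80.5), tpm4a with 7.35 TPM (0.90-37.1) and TNNC1 with 6.38 TPM (0.72-22.8). The medians of the other 6 genes lay between 0.78 TPM for ACTC1 and 2.91 TPM for tnnt2d. The ranges of each pair of neighbours in this order overlapped. Leaving the 10 most abundant features out of the denominator exchanged the places of ACTA1 and actc1a and kept the rest of the order. The counts behind these levels were small for most genes. Means per library were 14.5 counts for ACTC1, 40.8 for actc1a, 47.5 for tnnt2d, 53.5 for TNNI2-35958, 77.8 for ACTA1, 80.9 for actc1c and 88.7 for TNNC1, against 742 for tpm3. Actin coding sequences are close to each other, and fractional expected counts, which arise where reads are divided between genes, were found for actc1a in 14 of the 14 libraries in which it was above 0, for ACTA1 in 15 of 17, for actc1c in 14 of 17 and for ACTC1 in 5 of 14. They were also found for tpm3 in 17 of 18 libraries, for tpm4a in 11 of 17, for TNNC1 in 10 of 17, for TNNI2-29069 in 10 of 18, for tnnt2d in 8 of 17 and for TNNI2-35958 in 5 of 17. The split of reads between each of these genes and its relatives is therefore uncertain.

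With HRasG12V in keratinocytes, all 10 genes had positive log2 fold changes (base-2 logarithms of HRasG12V over HRas control), as had 50.5% of all 16011 genes tested, and their median was 2.52 beside 0.01 for all genes. The medians of the 4 actins and the 4 troponins were 2.79 and 2.75, tpm4a was at 2.1, just above the actin actc1c at 2.07, and tpm3 had the smallest value, 0.90. At an adjusted p of 0.05, 5 of the 10 were called higher (TNNC1, both TNNI2 genes, tnnt2d and tpm4a), where 0.256% of all genes were called higher. In 9 of 10 genes every HRasG12V library lay above every control library, which held for 6.75% of all genes. The genes were picked with this contrast in view, so these shares carry no weight as a test.

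TNNC1, troponin C of slow and cardiac muscle in mammals, had 18.4, 20.7 and 17.7 CPM in keratinocyte HRasG12V libraries (replicates 1, 2 and 3), against 1.46, 2.55 and 1.54 CPM in keratinocyte HRas control libraries. The 3 HRasG12V values lay close together and far above the controls, with a log2 fold change of 3.42 ± 0.44 (SE). TNNI2-35958, an inhibitory subunit named after the fast skeletal form of mammals, had 11.8, 18.3 and 11.7 CPM with HRasG12V, against 1.251, 1.41 and 1.81 CPM with HRas control, a log2 fold change of 3.09 ± 0.47. TNNI2-29069 was read more often, with 40.6, 34.7 and 37.97 CPM in HRasG12V libraries, against 7.29, 12.2 and 4.61 CPM in control libraries, and had a log2 fold change of 2.40 ± 0.34, so the groups of both inhibitory subunits were apart in all 3 batches. tnnt2d, of the tropomyosin-binding troponin T family, had 6.62, 9.13 and 8.49 CPM with HRasG12V, against 0.83, 1.70 and 1.95 CPM with HRas control, with a log2 fold change of 2.38 ± 0.55. The sum of the 4 troponins was 75.9-82.8 CPM in keratinocyte HRasG12V libraries and 9.91-17.8 CPM in keratinocyte HRas control libraries.

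The actins had fold changes of much the same size with wider errors. ACTA1, named after the skeletal alpha-actin of mammals, had 18.3, 19.5 and 11.2 CPM in HRasG12V libraries, against 2.92, 1.41 and 1.68 CPM in control libraries, with a log2 fold change of 2.93 ± 0.69. ACTC1, named after the cardiac alpha-actin of mammals, had 3.38, 10.04 and 2.11 CPM with HRasG12V, while the controls had 0, 0 and 0.70 CPM, so its log2 fold change of 3.85 ± 1.02 rests on 1 control library with 5 counts. actc1a, a zebrafish cardiac-type alpha-actin gene, had 19.4, 10.96 and 4.42 CPM with HRasG12V, against 0, 3.96 and 1.81 CPM with HRas control, and its lowest HRasG12V value was close to its highest control value. For actc1c the groups overlapped, with 2.39, 17.6 and 6.74 CPM in HRasG12V libraries and 3.54, 0.57 and 0.84 CPM in control libraries, so that replicate 1 went the other way and the log2 fold change was 2.07 ± 0.67.

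Of the tropomyosins, tpm4a had 29.2, 27.1 and 20.2 CPM with HRasG12V, against 8.34, 2.83 and 5.72 CPM with HRas control, a log2 fold change of 2.1 ± 0.44. tpm3 had 125.8, 124.2 and 96.2 CPM with HRasG12V, against 59.0, 75.2 and 53.0 CPM with HRas control. Its groups did not overlap either, but its log2 fold change of 0.90 ± 0.24 was the smallest of the 10.

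**Figure D1:**
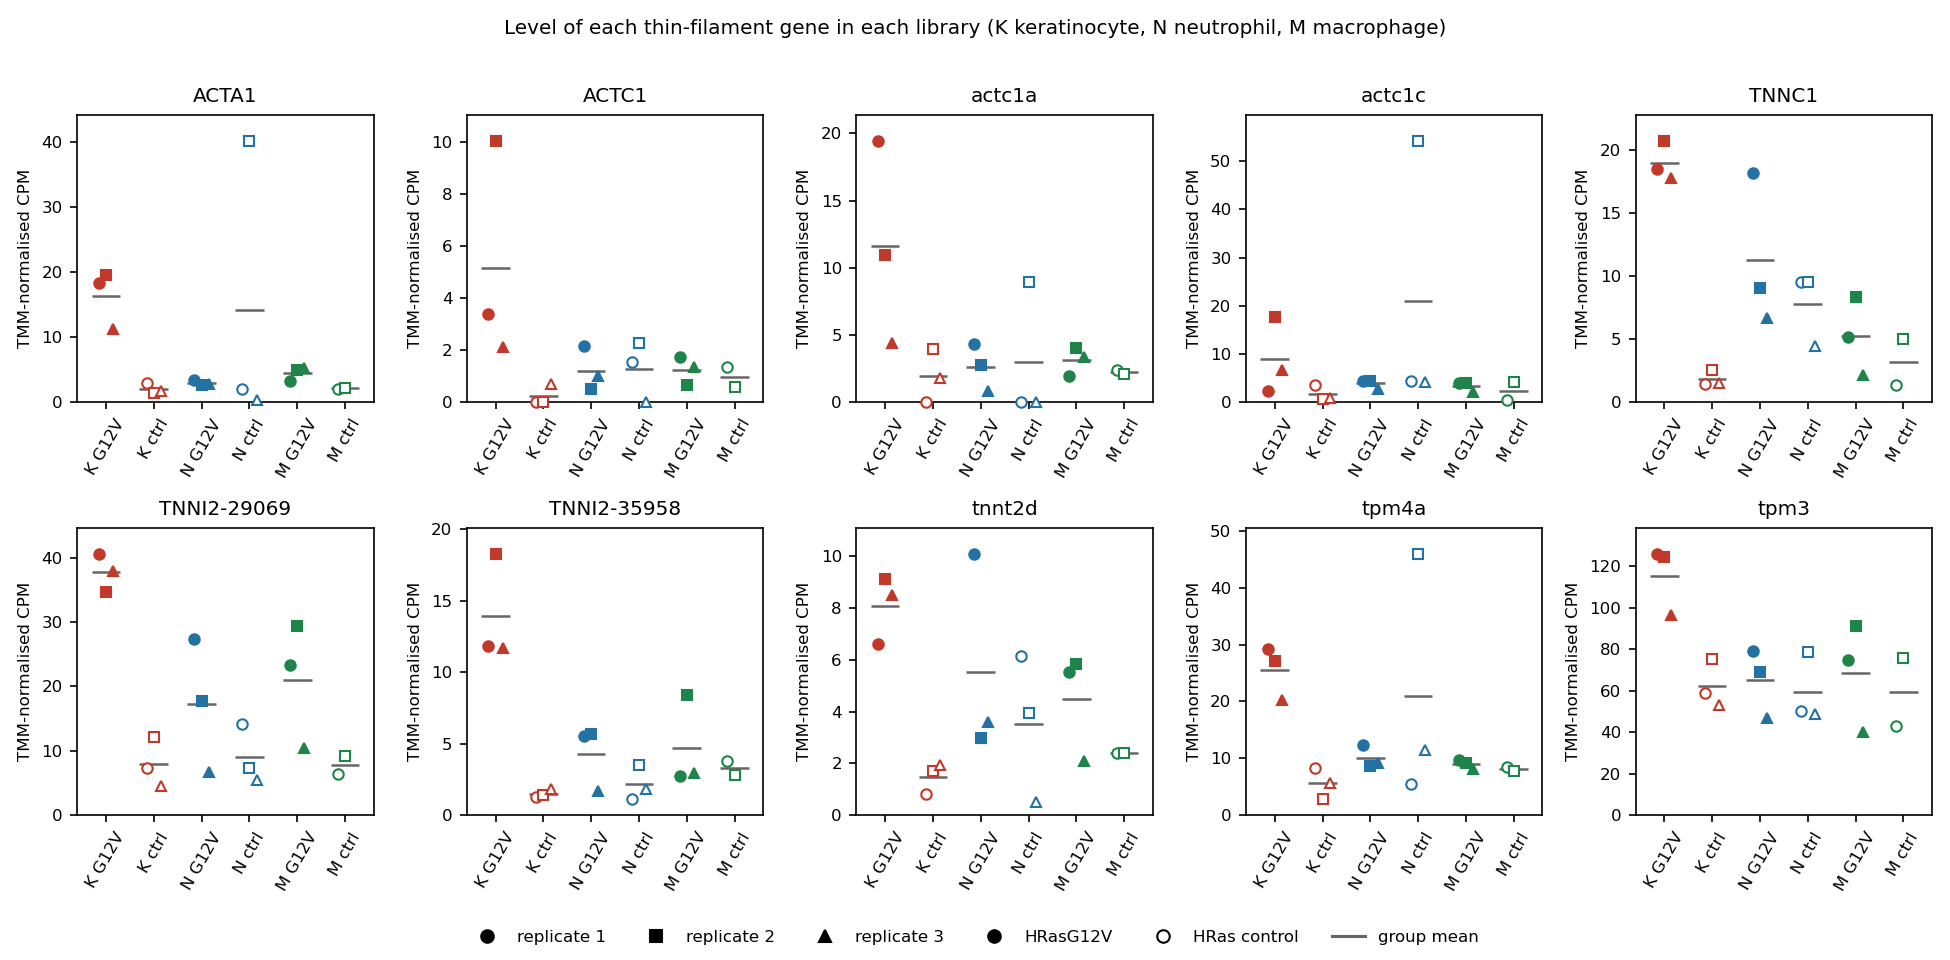
TMM-normalised CPM (y axis, linear and starting at 0) of each of the 10 genes in each library, by group on the x axis, with a symbol for each replicate, filled for HRasG12V and open for HRas control, and a bar at the group mean. In keratinocyte libraries HRasG12V and control separate for every gene except actc1c, and neutrophil HRas control replicate 2 stands far above the other neutrophil libraries for ACTA1 (40.1 CPM), actc1c (54.2 CPM) and tpm4a (45.9 CPM).

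Which of these genes counted as called in keratinocytes depended on single libraries for tnnt2d and tpm4a. When each of the 17 libraries was left out in turn, TNNC1 and both TNNI2 genes were called in 17 of 17 fits, tpm4a in 11 and tnnt2d in 9, and ACTA1, which missed the threshold in the full fit, was called in 7. All 10 log2 fold changes stayed positive in each of these fits. The count of called genes was 3 when keratinocyte HRasG12V replicate 2 or 3 or keratinocyte HRas control replicate 1 or 2 was left out. ACTC1 varied most, between 2.92 without HRasG12V replicate 2 and 8.94 without control replicate 3, where the remaining controls are at 0 and the fitted value is no bound.

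In neutrophil libraries the 10 genes had fold changes of both signs. The 4 troponins had positive log2 fold changes of HRasG12V over HRas control, between 0.55 ± 0.37 for TNNC1 and 1.04 ± 0.45 for TNNI2-35958. ACTA1 (-1.79 ± 0.66), actc1c (-1.80 ± 0.58) and tpm4a (-0.97 ± 0.42) were negative. ACTC1 (-0.21 ± 0.82), actc1a (0.14 ± 0.80) and tpm3 (0.14 ± 0.24) lay within their errors. None of the 10 was called by edgeR's quasi-likelihood test (5 had an unadjusted p under 0.05) or by DESeq2, where edgeR called 0.15% of all genes. The unadjusted count is given without the share of all genes, and nothing is read from it. The fold change was positive in 6 of the 10 genes and in 52.8% of all genes. In 0 of the 10 genes were the HRasG12V libraries all above or all below the control libraries, against 7.71% and 5.1% of all genes. Markers of other cell types differed in these libraries too: photoreceptor markers had a median log2 fold change of -1.71, with 6 of 18 called lower and summed levels of 127.5-149.7 CPM with HRasG12V against 192.8-419.9 CPM with HRas control. The medians were 1.77 for neutrophil markers (2 of 6 called higher), 1.24 for macrophage markers and 1.36 for erythroid markers. Their part in the values of the 10 genes was not tested.

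The negative values rested mainly on neutrophil HRas control replicate 2. ACTA1 had 3.36, 2.67 and 2.84 CPM in neutrophil HRasG12V libraries, against 2.04, 40.1 and 0.26 CPM in neutrophil HRas control libraries, so that replicate 2 held 94.6% of the control sum. actc1c had 4.48, 4.49 and 2.72 CPM with HRasG12V, against 4.49, 54.2 and 4.16 CPM with HRas control, and tpm4a had 12.4, 8.58 and 9.26 CPM, against 5.51, 45.9 and 11.4 CPM. The other 2 control libraries of ACTA1 lay below all HRasG12V libraries, and those of tpm4a lay on either side of replicates 2 and 3. For actc1c the HRasG12V value was the lower one in 3 of 3 batches, by 4.478 against 4.492 CPM in batch 1. actc1a had 4.31, 2.78 and 0.86 CPM with HRasG12V, against 0, 8.92 and 0 CPM with HRas control, so its control reads were all in replicate 2. Without that library the log2 fold change of ACTA1 became 1.16 ± 0.54 and that of tpm4a 0.35 ± 0.37, both with the opposite sign, and that of actc1c stayed negative, at -0.46 ± 0.61. ACTC1 became 0.59 ± 0.98, and actc1a, with both remaining controls at 0, has no usable fold change.

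The troponins did not share the high actin values of that library, though TNNI2-35958 was highest there among the controls. TNNC1 had 18.2, 9.03 and 6.67 CPM in neutrophil HRasG12V libraries, against 9.50, 9.50 and 4.42 CPM in neutrophil HRas control libraries, so replicate 2 equalled replicate 1. TNNI2-29069 had 27.3, 17.8 and 6.67 CPM with HRasG12V, against 14.2, 7.38 and 5.46 CPM with HRas control, higher in each of the 3 batches while the groups overlapped. Its log2 fold change was 0.87 ± 0.32 with neutrophil HRas control replicate 2 and 0.59 ± 0.36 without it. TNNI2-35958 had 5.51, 5.65 and 1.73 CPM with HRasG12V, against 1.12, 3.51 and 1.82 CPM with HRas control, so that replicate 2 held 54.4% of the control sum, and its log2 fold change was 1.04 ± 0.45 with that library and 1.38 ± 0.57 without it. tnnt2d had 10.1, 2.98 and 3.58 CPM with HRasG12V, against 6.13, 3.95 and 0.52 CPM with HRas control, and replicate 2 lay between the other controls. In the libraries of both constructs replicate 3 had the lowest CPM of TNNC1 and TNNI2-29069, as it had of the skeletal muscle genes outside the thin filament (578 CPM in summed level with HRasG12V and 376 CPM with HRas control). Neutrophil HRas control replicate 2 was not the highest in those genes, with 1427 CPM beside 1538 CPM in replicate 1.

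**Figure D2:**
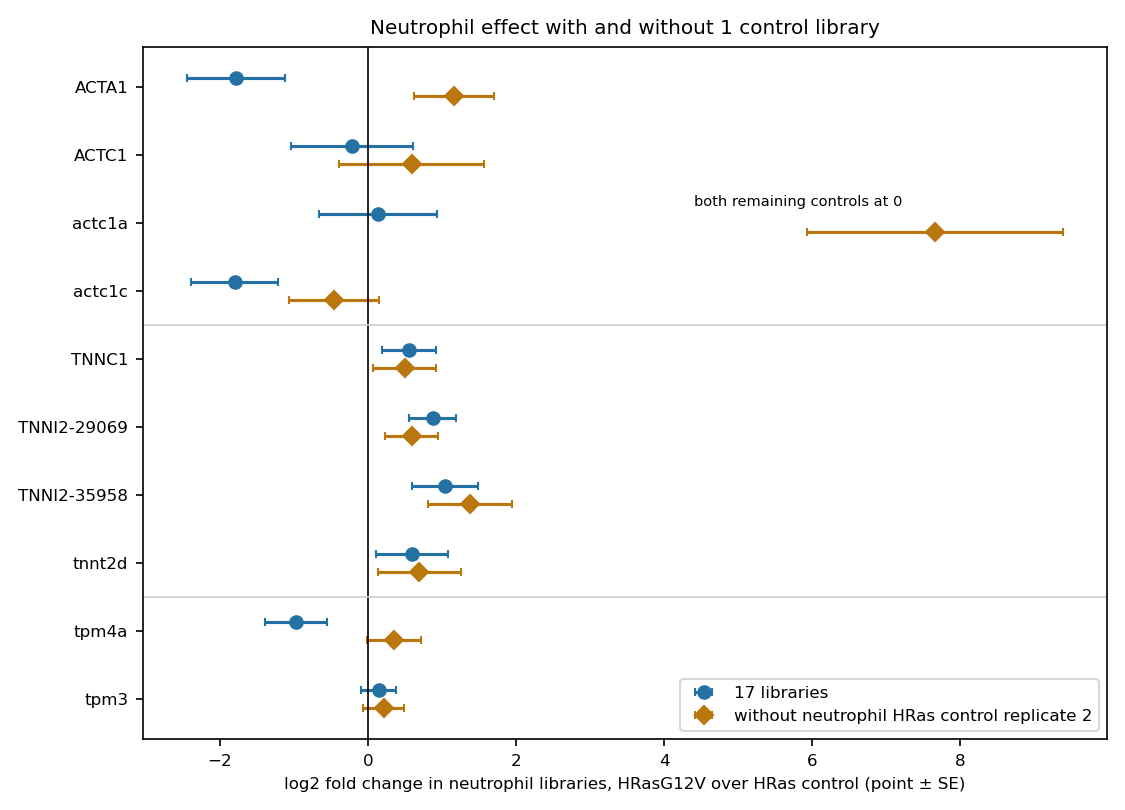
Log2 fold change in neutrophil libraries (x axis, HRasG12V over HRas control, point ± SE) of each gene (y axis) with 17 libraries (circles) and without neutrophil HRas control replicate 2 (diamonds). The circles of ACTA1 and tpm4a lie left of 0 and their diamonds right of it, at 1.16 and 0.35, while the 4 troponins stay right of 0 in both; the diamond of actc1a at 7.66 is set by 2 controls at 0.

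The ratio of actin to troponin counts varied between libraries and set neutrophil HRas control replicate 2 far apart. The 4 actins together had between 0.234 and 0.704 counts per troponin count in 16 libraries, and 4.34 in neutrophil HRas control replicate 2. That library had 105.5 CPM of actins beside 24.3 CPM of troponins, where the keratinocyte HRasG12V libraries had 24.5-58.1 CPM of actins beside 75.9-82.8 CPM of troponins. It also held 15 genes at 10 CPM or more that were over 5-fold above every other library, a count of 0 in each of the other 16 libraries. The highest of them was rn7sk (1210 CPM, at most 91.7 elsewhere). Among them were also acta2, a smooth muscle actin (20.6 CPM, at most 3.67 elsewhere), acte1, a further actin gene (10.2 CPM, at most 1.55), 2 genes named EEF1A1, the translation elongation factor (344 CPM, at most 3.64, and 321 CPM, at most 9.19), and HSPA8, a heat shock protein (59.6 CPM, at most 3.12). The tubulin genes tubb4bl, tuba8l5 and tuba7l and the heat shock genes hsc70 and hspa1b were on the list too. These genes were picked out after their values were seen, and their part in the actin values was not tested.

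**Figure D3:**
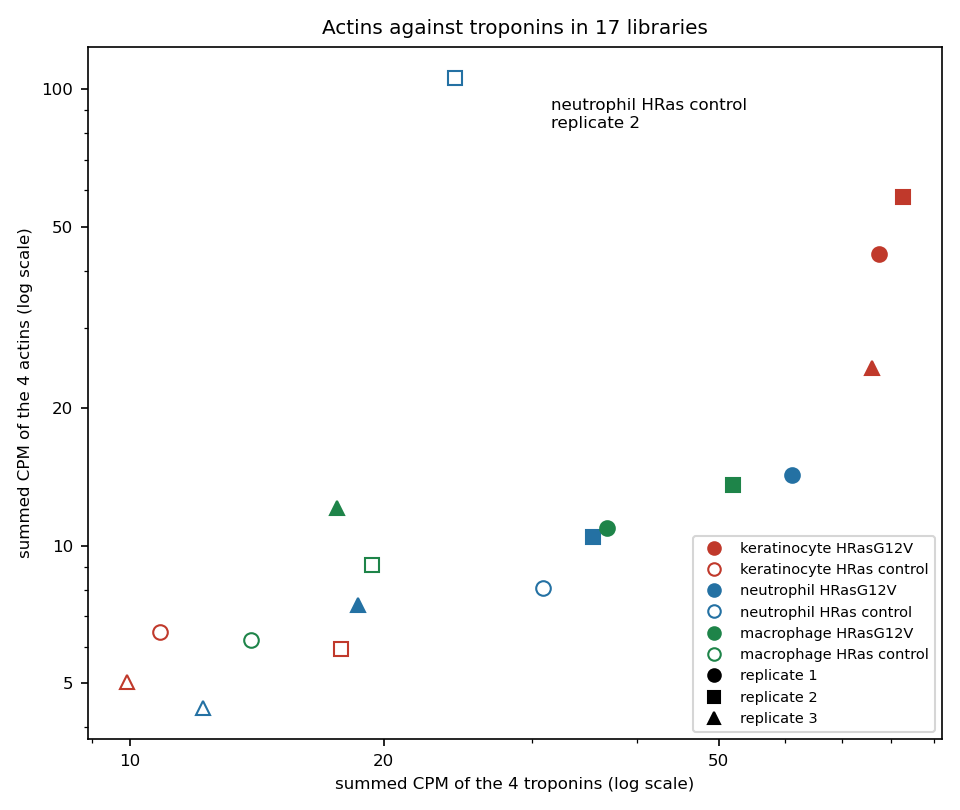
Summed CPM of the 4 actins (y axis, log scale) against summed CPM of the 4 troponins (x axis, log scale) in 17 libraries, coloured by cell type, filled for HRasG12V and open for HRas control. Neutrophil HRas control replicate 2, at 105.5 CPM of actins and 24.3 CPM of troponins, stands apart from the band formed by the other 16 libraries, and the keratinocyte HRasG12V libraries are at the upper right.

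In macrophage libraries all 10 log2 fold changes were positive (52.4% of all genes), between 0.29 ± 0.48 for tpm4a and 1.64 ± 0.37 for TNNI2-29069, with a median of 0.88 beside 0.03 for all genes tested. None passed the threshold of edgeR's quasi-likelihood test, and neither did any of the 16011 genes (0.0% called); 1 of the 10 and 484 of all genes had an unadjusted p under 0.05. DESeq2 called 1 gene in all and none of the 10. TNNI2-29069 had 23.4, 29.4 and 10.4 CPM in macrophage HRasG12V libraries, against 6.35 and 9.16 CPM in the 2 macrophage HRas control libraries, and its groups did not overlap (unadjusted p = 0.00011, adjusted p = 0.96, edgeR). ACTA1 was the other gene with separate groups, at 3.31, 4.88 and 5.29 CPM with HRasG12V and 1.97 and 2.25 CPM with HRas control (log2 fold change 1.42 ± 0.78). All macrophage HRasG12V libraries lay above both controls in 9.58% of all genes. Markers of several cell types also had positive values in macrophage libraries, among them 17 of 18 keratinocyte markers (median log2 fold change 0.54), 6 of 6 neutrophil markers (1.07) and 16 of 17 macrophage markers (0.61). Neuron markers (3 of 7 positive, median -0.19) and notochord and cartilage markers (3 of 6, -0.16) had medians below 0. The part of these markers in the values of the 10 genes was not tested. In the fit of the 5 macrophage libraries alone TNNI2-29069 was called, with a log2 fold change of 1.78 ± 0.26 (adjusted p = 7.5e-09, edgeR). The same fit called 5 other thin-filament genes and 8 skeletal muscle genes of the lists described below, where the full fit called 0 of each. The share of all genes called in the fit of macrophage libraries alone is not given here, so its call of TNNI2-29069 is a description. That fit has 1 residual degree of freedom per gene, so its error rests on the spread shared across genes. There the batch without a macrophage control holds only its HRasG12V library, which its own batch term absorbs. The fold change in that fit therefore comes from the 2 batches with both constructs. The other 8 genes overlapped between constructs, as TNNC1 did with 5.16, 8.33 and 2.18 CPM with HRasG12V and 1.36 and 4.99 CPM with HRas control.

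**Figure D4:**
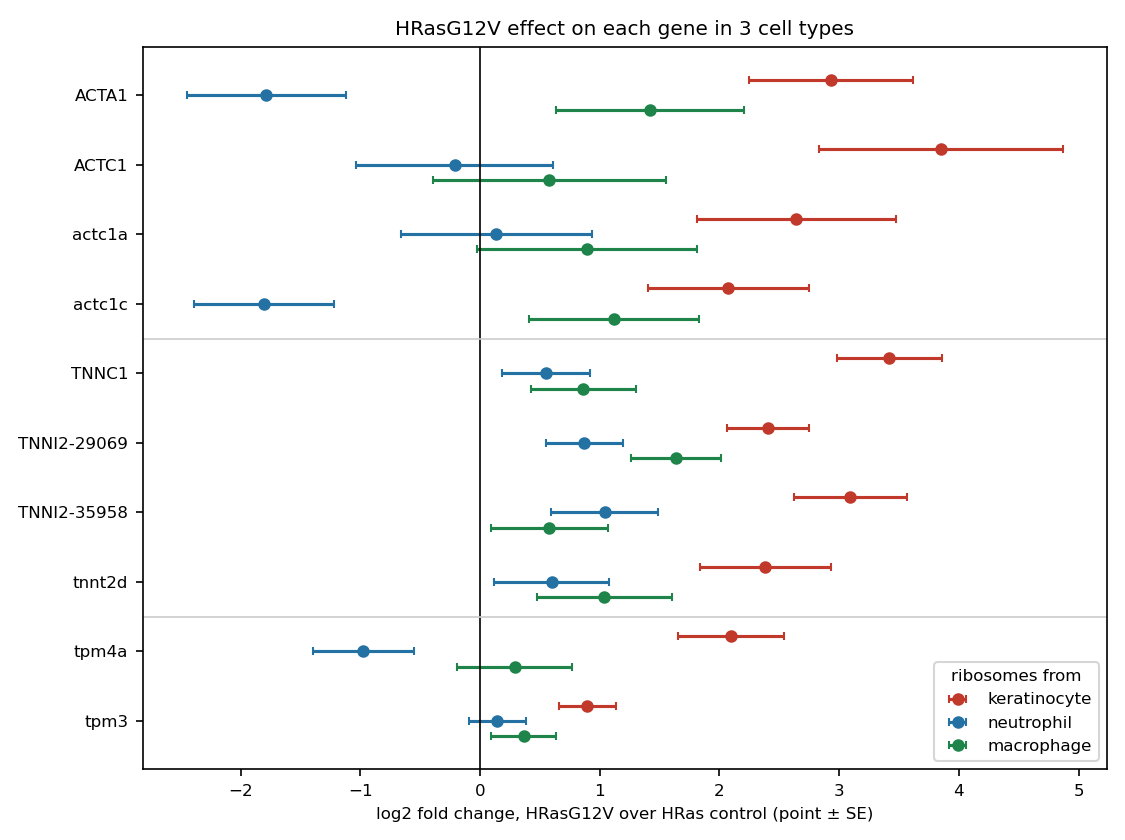
Log2 fold change of HRasG12V over HRas control (x axis, point ± SE) of each gene (y axis) in keratinocyte, neutrophil and macrophage libraries. The keratinocyte points run from 0.90 for tpm3 to 3.85 for ACTC1, the macrophage points from 0.29 to 1.64, and the neutrophil points from -1.80 for actc1c to 1.04 for TNNI2-35958.

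The keratinocyte effect exceeded the neutrophil effect in all 10 genes (48.7% of all genes), by a median of 2.69 on the log2 scale, and the macrophage effect in all 10 (49.6% of all genes), by a median of 1.63. Each pair of effects shares no library. The differences use the contrasts by which the genes were picked and are given as values. Against neutrophils the difference was 4.72 ± 0.96 for ACTA1 and 3.88 ± 0.90 for actc1c, and between 1.53 and 2.87 for the troponins. Without neutrophil HRas control replicate 2 it was 1.82 ± 0.70 for ACTA1 and 2.63 ± 0.85 for actc1c, that of actc1a turned to -5.18 ± 2.29 with both remaining controls at 0, and the median over the 10 genes was 1.81. Against macrophages the difference was 2.55 ± 0.61 for TNNC1 and 2.51 ± 0.68 for TNNI2-35958, while for TNNI2-29069 it was 0.77 ± 0.48 and for tpm3 0.53 ± 0.36. The neutrophil effect was below the macrophage effect in 9 of the 10 genes, with a median of -0.76 (neutrophil minus macrophage), which became -0.10 without neutrophil HRas control replicate 2. In edgeR 0 of the 10 were past the threshold in any of the 3 differences (10, 4 and 2 at an unadjusted p under 0.05, for keratinocyte minus neutrophil, keratinocyte minus macrophage and neutrophil minus macrophage), where 0.0125% of all genes were in each. DESeq2 placed 1 of the 10 past it in the keratinocyte minus neutrophil difference and 0 in the others. Since the choice of genes used these libraries, nothing is read from these counts.

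Cell types were compared under the same construct as a description, because these libraries also gave the effects by which the genes were chosen, and nothing is read from the counts of genes past the threshold. With HRas control, keratinocyte libraries were below neutrophil libraries past the threshold in 3 of the 10 genes, where 2.1% of all genes were called lower. TNNC1 had a log2 fold change of -2.04 ± 0.45, with 1.46-2.55 CPM in keratinocyte HRas control libraries and 4.42-9.50 CPM in neutrophil HRas control libraries, and stayed past the threshold in 17 of 17 fits with a library left out. actc1c had -2.92 ± 0.67 and tpm4a -1.75 ± 0.46. Without neutrophil HRas control replicate 2 these became -1.60 and -0.47, short of the threshold, and ACTA1, at -2.28 in the full fit, turned to 0.62. Both also fell short without keratinocyte HRas control replicate 2 or 3, and tpm4a under DESeq2. Between keratinocyte and macrophage control libraries 0 of the 10 genes were past the threshold in edgeR or DESeq2 (0 at an unadjusted p under 0.05 in edgeR), where edgeR called 1.56% of all genes. Their log2 fold changes lay between -1.30 ± 1.199 for ACTC1 and 0.30 ± 0.86 for ACTA1, and the interval for TNNC1 ran from -1.54 to 0.47. Neutrophil over macrophage control libraries placed 1 gene past the threshold, actc1c (3.16 ± 0.70), beside 0.231% of all genes called higher. Its log2 fold change was 1.54 and short of the threshold without neutrophil HRas control replicate 2, which held 86.2% of its control sum, and it also fell short without either macrophage control library and under DESeq2.

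With HRasG12V, keratinocyte libraries were above neutrophil libraries past the threshold in 4 of the 10 genes, where 2.51% of all genes were called higher, again in libraries that the choice of genes used. These were TNNI2-29069 (log2 fold change 1.36 ± 0.31), TNNI2-35958 (1.72 ± 0.41), ACTA1 (2.44 ± 0.62) and tpm3 (0.84 ± 0.24). TNNI2-35958 had 11.7-18.3 CPM in keratinocyte HRasG12V libraries and 1.73-5.65 CPM in neutrophil HRasG12V libraries. No call was left without neutrophil HRasG12V replicate 2 or without replicate 3, 1 was left without keratinocyte HRasG12V replicate 3 and 2 without its replicate 1. Of the 35 skeletal muscle genes outside the thin filament that were tested, 15 were called higher in the same comparison.

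Keratinocyte HRasG12V libraries, which the choice of genes favoured, were above macrophage HRasG12V libraries past the threshold in 3 of the 10 genes, where 1.16% of all genes were called higher. TNNC1 differed by 2.02 ± 0.37 on the log2 scale, with 17.7-20.7 CPM in keratinocyte HRasG12V libraries and 2.18-8.33 CPM in macrophage HRasG12V libraries, and was past the threshold in 17 of 17 fits with a library left out. TNNI2-35958 (1.66 ± 0.40) and tpm4a (1.49 ± 0.41) were past it in 12 and 10 of these fits. The number of calls was 1 without keratinocyte HRasG12V replicate 1 or 3 or macrophage HRasG12V replicate 1, and 5 without neutrophil HRas control replicate 2. Here 8 of the 35 skeletal muscle genes were called higher. Neutrophil and macrophage HRasG12V libraries gave no call among the 10 genes in edgeR (1 at an unadjusted p under 0.05) or in DESeq2, where edgeR called 2.16% of all genes, and the largest difference was 1.19 ± 0.37 for TNNC1. Both keratinocyte comparisons under HRasG12V depend on the scaling: with library totals in place of TMM factors the median of all genes moved to -0.60 against neutrophils and -1.07 against macrophages, and 0 of the 10 genes were called in either. Relative to that shift tpm3 (-0.20) and tnnt2d (-0.09), whose sign against macrophages turned, were still above the median of all genes.

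Other genes of the thin filament were followed by a list of 35 genes found in the files, 27 of which passed the filter. In keratinocytes 7 of the 27 were called higher with HRasG12V and 0 lower, 25 were positive and the median log2 fold change was 1.32. Of all genes tested, 0.256% were called higher and 50.5% were positive. This list too was chosen with earlier results of these data known, so its counts are a description. The called genes were TNNC2, the troponin C of fast muscle in mammals (1.91 ± 0.28), 2 genes named TNNT3, a troponin T (ENSDARG00000068457, 2.01 ± 0.30, and ENSDARG00000030270, 1.98 ± 0.35), the muscle tropomyosin tpma (1.94 ± 0.31), the alpha-actin actc1b (1.97 ± 0.31), a further ACTA1 gene (ENSDARG00000055618, 1.89 ± 0.34) and the troponin T gene tnnt2e. NEB, which codes for nebulin, a protein that runs along the thin filament of skeletal muscle, had 1.01 ± 0.29 and was not called. A further TNNI2 gene, ENSDARG00000005841, was nearly flat in keratinocytes, with a log2 fold change of -0.05. It averaged 17.6 CPM with HRasG12V and 18.5 CPM with HRas control. Another TNNI2 gene, ENSDARG00000029995, had 1.32, while TPM4 had 0.08 and tnni1d -1.02, so the rise was not shared by every gene of these families. tpma, for example, had 394, 551 and 323 CPM in keratinocyte HRasG12V libraries and 130.5, 130.7 and 77.1 CPM in keratinocyte HRas control libraries, well apart. The cytoskeletal beta-actins actb1 (0.31 ± 0.27) and actb2 (0.27 ± 0.25), which are used by every cell, were not called. In neutrophils and macrophages 0 of the 27 were called by edgeR or DESeq2 (3 and 6 at an unadjusted p under 0.05 in edgeR), with medians of 0.32 and 0.55. The unadjusted counts stand without the share of all genes, and nothing is read from them. Of all genes edgeR called 0.15% in neutrophils and 0.0% in macrophages. In neutrophil HRas control replicate 2 the further ACTA1 gene had 57.5 CPM, where the other 2 control libraries had 16.4 and 10.1 CPM, actc1b had 184 CPM, where they had 98.3 and 33.0 CPM, and TNNC2 had 37.1 CPM, where they had 51.7 and 12.2 CPM.

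Skeletal muscle genes outside the thin filament mostly had positive log2 fold changes in keratinocytes, as the 10 genes had. Of 39 such genes found, 35 were tested, 13 were called higher and 0 lower in keratinocytes, 34 were positive and the median log2 fold change was 1.54. Of all genes tested, 0.256% were called higher and 50.5% were positive. The list was chosen with earlier results of these data known, so its counts are a description. In neutrophils and macrophages edgeR called 0 of the 35 (9 and 10 at an unadjusted p under 0.05) and DESeq2 1 and 0, with medians of 0.28 and 0.76. These unadjusted counts too stand without the share of all genes, and nothing is read from them. Of all genes edgeR called 0.15% in neutrophils and 0.0% in macrophages. Their summed level was 2333-2723 CPM in keratinocyte HRasG12V libraries and 775-1288 CPM in keratinocyte HRas control libraries, without overlap. It was 578-2629 CPM in neutrophil HRasG12V and 376-1538 CPM in neutrophil HRas control libraries, and 1386-2214 CPM in macrophage HRasG12V and 1045-1289 CPM in macrophage HRas control libraries. The most abundant of them, the fast myosin heavy chains myhz1.1 (1.09 ± 0.35), myhz1.2 (0.99 ± 0.39) and myhz2 (0.75 ± 0.34), were not among those called. The myogenic regulators MYOG and MYF6 were at 0 in 10 and 15 of 17 libraries and were not tested, and MYOD1 was at 0 in 3. The 7 cardiac muscle markers tested summed to 38.05-65.3 CPM in keratinocyte HRasG12V and 19.2-37.3 CPM in keratinocyte HRas control libraries, and the cardiac myosin heavy chains MYH7 and MYH6 (ENSDARG00000079564) had log2 fold changes of 1.60 ± 0.43 and 0.80 ± 0.42. A further myh6 gene (ENSDARG00000090637) overlapped between constructs, with 1.55, 1.83 and 5.47 CPM with HRasG12V and 1.04, 2.26 and 4.61 CPM with HRas control. Of the 7 cardiac markers, 6 were positive and 0 were called in keratinocytes. The 18 keratinocyte markers had a median log2 fold change of 0.01 in keratinocyte libraries. Medians there were 1.47 for neutrophil markers (4 of 6 positive), 0.92 for erythroid (5 of 6) and 0.79 for smooth muscle markers (3 of 5). They were 0.19 for macrophage, -0.35 for photoreceptor, -0.20 for neuron and -0.48 for notochord and cartilage markers. In keratinocytes 0 genes of these lists were called. Their part in the values of the 10 genes was not tested. The part of muscle RNA from outside the labelled cells in the values of the 10 genes was not tested.

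**Figure D5:**
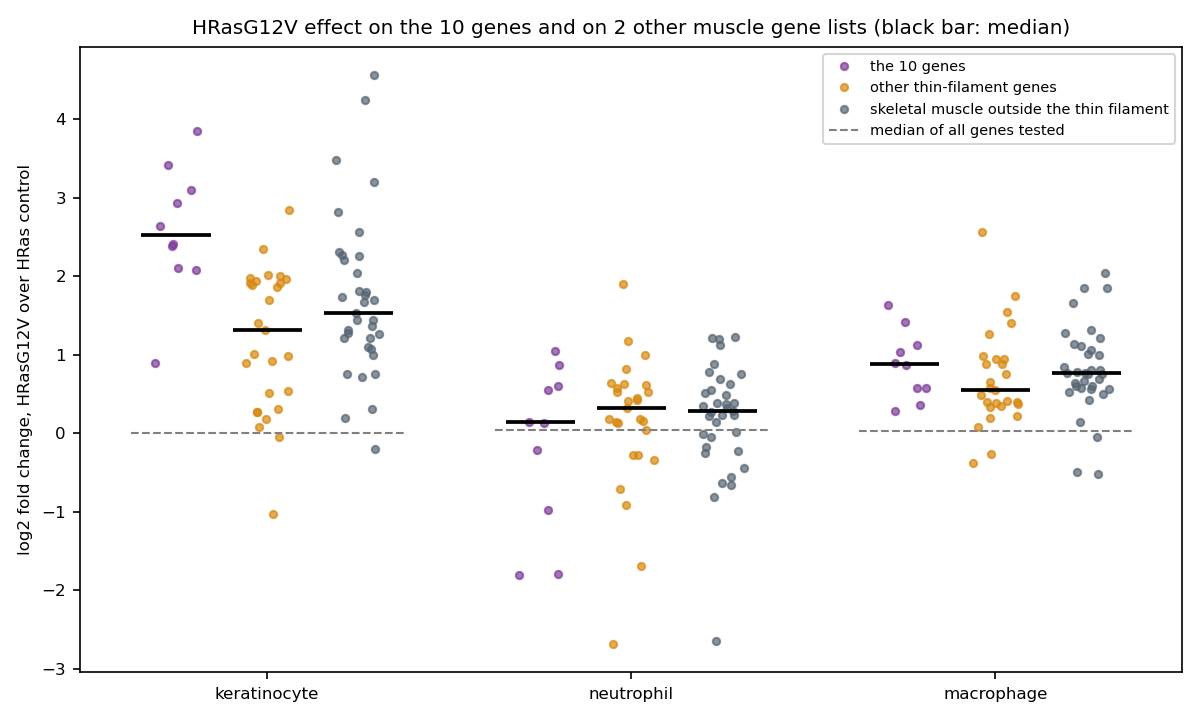
Log2 fold change of HRasG12V over HRas control (y axis) of the 10 genes, of 27 other thin-filament genes and of 35 skeletal muscle genes outside the thin filament, by cell type on the x axis, with a black bar at each median and a dashed line at the median of all genes tested. In keratinocytes the medians are 2.52, 1.32 and 1.54 above a dashed line at 0.01, in macrophages 0.88, 0.55 and 0.76, and in neutrophils all 3 lie near the dashed line, at 0.14, 0.32 and 0.28.

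The 10 genes varied together over the 17 libraries to different degrees, which is given as a description because the libraries share groups. The median Pearson correlation of log2 CPM was 0.77 among the 4 troponins (6 pairs, 0.67-0.79), 0.62 among the 4 actins (6 pairs, 0.18-0.73) and 0.57 between actins and troponins (16 pairs). After each group's mean was subtracted these medians were 0.49, 0.51 and 0.31. The genes whose log2 CPM followed the mean of the 10 standardised profiles most closely, out of 16001 other genes, were actc1b (r = 0.94), the further ACTA1 gene (0.90), tpma (0.89), the TNNT3 gene ENSDARG00000068457 (0.89), srprb (0.89), the other TNNT3 gene (0.87), AK1 (0.86) and TNNC2 (0.85). Of these 8, 6 were on the thin-filament list. By Spearman's rho 5 of the 8 were again among the 8 highest, and within groups 1 was.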

How the data were processed

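Expected counts and TPM per gene were deposited by the authors, who mapped the reads with Bowtie 1.1.1 against the GRCz10 build and quantified genes with RSEM 1.2.20, which divides reads shared between genes; libraries had been amplified from low RNA input. The TPM values were used only to compare levels between genes, and FPKM values were not used here. Of 31953 genes, 26121 had a symbol in the gene name table and 4294 shared it with another gene. Expected counts were rounded and analysed in R 4.3.3 with edgeR 4.0.16. Macrophage HRas control replicate 3 was left out. After filterByExpr across 6 groups, which left 16011 genes, and TMM scaling, a quasi-likelihood model of group plus batch was fitted to 17 libraries (prior count 0.125, 12 contrasts). P-values were adjusted by the Benjamini-Hochberg method across the whole table, and 0.05 was the threshold. CPM values are TMM-normalised, and SE denotes the standard error of a log2 fold change, derived from the fold change and the quasi-likelihood F statistic. Intervals are the log2 fold change ± 1.96 SE. They are a normal approximation and can be narrower than the test implies. The model was also run on simulated counts in which 200 genes were changed in keratinocyte HRasG12V libraries. Those counts held no batch effect and no outlying library, so nothing is read from that run about the results here. With 2 or 3 libraries per group, precision is set by the spread between libraries.

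The batch label gives the pairing, as replicates with the same number share a collection batch, and the study's own model used it. Deviations of HRasG12V and HRas control libraries of the same cell type and batch from their group means correlated with r between -0.04 and 0.16 over 8 pairs.

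The genes and lists were chosen with earlier results of these data known. Named in the text are all 10 genes, the most abundant genes of the muscle lists, the thin-filament genes past the threshold and the 8 genes most like the 10. Further TNNI2 genes, TPM4 and tnni1d are named as relatives with smaller or negative values. Alternatives were all 18 libraries, DESeq2 size factors, library totals, a filter of at least 1 count or a mean of 50 counts, no replicate block, DESeq2 1.42.0, the libraries of a cell type alone, no top 10 features, a prior count of 2, and each library left out in turn.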

Additional observations from a re-analysis of the deposited data

How the results depend on the processing

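All 10 log2 fold changes in keratinocytes stayed positive under each alternative that tested them. With library totals in place of TMM factors the median of all genes moved to 0.39 in keratinocytes, 0.49 in neutrophils and 0.76 in macrophages, and the median of the 10 genes lay 2.71, 0.20 and 0.80 above it. The number of the 10 called in keratinocytes, 5, was 9 with all genes of at least 1 count and 3 with a mean count minimum of 50, under which 7 of the 10 are tested. In neutrophils it was 2 with at least 1 count, and in macrophages 1 with at least 1 count and 1 in the libraries of the cell type alone. For keratinocytes over neutrophils in HRasG12V it was 0 with library totals and 2 without the replicate block, and for keratinocytes over macrophages in HRasG12V 0 with library totals, 6 with at least 1 count and 1 without the block. For neutrophils over macrophages it was, in control libraries, 2 with all 18 libraries, 4 with at least 1 count and 0 without the replicate block and with DESeq2, and in HRasG12V libraries 1 with at least 1 count. The thin-filament list had 1 call in neutrophils with at least 1 count and 5 in macrophages in that cell type's libraries alone. The skeletal muscle list had, in keratinocytes, 8 calls with library totals, 21 with at least 1 count and 7 without the replicate block, in neutrophils 2 with at least 1 count and 1 with DESeq2, and in macrophages 2 with at least 1 count and 8 in that cell type's libraries alone. The cause was not tested. The share of all genes called under each setting is not given here, so nothing is read from these counts. The same holds for the counts with a library left out.

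Leaving out each library in turn gave 3 to 6 calls among the 10 genes in keratinocytes, 0 to 1 in neutrophils, 1 to 4 for keratinocytes over neutrophils and 0 to 3 for neutrophils over macrophages in control libraries, and 0 to 6 for keratinocytes over neutrophils, 1 to 5 for keratinocytes over macrophages and 0 to 1 for neutrophils over macrophages in HRasG12V libraries. In keratinocytes it gave 4 to 7 calls on the thin-filament list, with 4 without keratinocyte HRas control replicate 2, and 9 to 17 on the skeletal muscle list, and in neutrophils 0 to 1 on each. The 1 neutrophil call among the 10 genes was actc1a without neutrophil HRas control replicate 2. Both remaining controls are at 0 there, and the gene has no usable fold change. The median of the keratinocyte minus neutrophil effect ranged from 1.81 to 3.33. Without neutrophil HRas control replicate 2, actc1a reversed in control libraries to 7.28 for keratinocytes over neutrophils (lowest -1.07, without neutrophil HRas control replicate 1) and -7.24 for neutrophils over macrophages (highest 1.25, without the same replicate 1), where, without replicate 2, both remaining neutrophil controls are at 0 and the values depend on the prior count. ACTC1 and actc1a were above 0 in 14 of 18 libraries each, and low counts limit them most. The replicate block changed no other count of calls by over 1.5 times. Protein and promoter comparisons were not run.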
